A study of Mus musculus with 6 samples.

Results

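Phlda3, Inka2, Trp53inp1, Zmat3, Btg2, Psrc1, Sesn1, Tigar, Dglucy and Ephx1 are 10 genes listed as targets of the transcription factor p53 that act on signalling, on RNA or on metabolism. They were picked by gene symbol from a table of 52636 mouse genes, and all 10 were found in it. The list was drawn up with the contrast between irradiated and untreated glands already known. The levels and fold changes of these 10 genes in that contrast are therefore only described, and no p-value is printed for them. Whether each passed the threshold of the test over all genes is given as description too.

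RNA was sequenced from the parotid gland, a salivary gland built mostly of enzyme-secreting acinar cells. All mice were of FVB, an inbred laboratory strain, and 28 days old. There were 3 irradiated samples, from mice exposed to a single radiation dose of 5 Gy, and 3 untreated samples. The dose stands in the protocol of all 6 samples and was applied here to those that the treatment label marks as treated. The labels give neither the time from irradiation to collection nor whether samples came from different mice, and the p-values below therefore rest on the variation among these 6 samples, which may be partly technical.

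The p53 protein is held at a low level in unstressed cells and accumulates when DNA is damaged, because kinases that sense breaks release it from its inhibitor MDM2. It then binds DNA at a pair of short palindromic elements and raises the transcription of genes that stop the cell cycle, repair DNA or start cell death. A further set of its targets, the kind described here, restrains growth signalling, changes which mRNAs are made or kept, and redirects metabolism. In irradiated salivary glands p53 is known as a mediator of acinar cell loss.

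Gene counts totalled 14454646, 7108359 and 12127162 in the irradiated libraries and 12787135, 12722189 and 15036193 in the untreated ones. Irradiated replicate 2 stood apart: it was the shallowest library, its share of unaligned reads was 10.01% where the others had 3.75% to 4.33%, and 184 of its reads were set aside for low alignment quality against 342749 to 491591 elsewhere. The 9 acinar markers summed to 422122 to 547970 CPM (gene counts scaled to a common library size with TMM factors) in irradiated glands and 482487 to 576693 CPM in untreated glands, with no marker at 0 in any library. A gene is called when its p-value from edgeR's quasi-likelihood test, adjusted by the Benjamini-Hochberg method over the 12885 genes that passed the filter on low counts, is at most 0.05. By that rule 84 genes rose and 45 fell, so 65.1% of the calls were higher; with library totals in place of TMM factors 92.2% were.

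Promoter windows from RefSeq (build GRCm38.p6, 250 bases before to 50 after a transcript start) were found for 8 of the 10 genes, with no entry for Trp53inp1 and Zmat3. Sesn1, Inka2 and Psrc1 have 2 windows each, so there were 11 windows in all, and those of Psrc1 overlap. The windows of Sesn1 and Inka2 are printed because the downstream start of each gene carries a p53 consensus decamer, a 10-base element whose match is set in capitals, while the upstream start carries none. Those of Phlda3 and Ephx1 are printed because these genes were called higher under every setting tried, and neither holds the decamer. The Ephx1 window lies inside the gene as annotated (chr1:180976210-181020904, minus strand), so the outer 5′ end of that gene is not in it. All are given 5′ to 3′ on the gene's strand.
Sesn1, downstream start, chr10:41887189-41887488, plus strand: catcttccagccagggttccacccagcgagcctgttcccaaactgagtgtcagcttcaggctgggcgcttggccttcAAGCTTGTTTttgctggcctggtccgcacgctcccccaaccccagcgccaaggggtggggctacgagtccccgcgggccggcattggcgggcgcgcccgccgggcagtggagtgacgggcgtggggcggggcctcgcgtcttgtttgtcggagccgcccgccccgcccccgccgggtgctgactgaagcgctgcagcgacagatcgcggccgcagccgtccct
Sesn1, upstream start, chr10:41810324-41810623, plus strand: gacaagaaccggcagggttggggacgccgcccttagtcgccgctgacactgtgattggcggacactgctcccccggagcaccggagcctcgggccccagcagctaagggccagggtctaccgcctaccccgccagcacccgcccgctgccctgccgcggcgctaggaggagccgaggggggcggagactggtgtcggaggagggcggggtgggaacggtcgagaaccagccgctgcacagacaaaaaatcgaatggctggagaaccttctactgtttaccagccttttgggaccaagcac
Inka2, downstream start, chr3:105705208-105705507, plus strand: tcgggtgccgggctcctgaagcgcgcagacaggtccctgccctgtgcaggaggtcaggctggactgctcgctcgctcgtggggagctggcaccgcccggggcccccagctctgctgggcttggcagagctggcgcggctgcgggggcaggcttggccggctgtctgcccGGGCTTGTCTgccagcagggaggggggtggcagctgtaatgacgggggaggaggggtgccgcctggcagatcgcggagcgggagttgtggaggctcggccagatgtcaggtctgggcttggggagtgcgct
Inka2, upstream start, chr3:105704349-105704648, plus strand: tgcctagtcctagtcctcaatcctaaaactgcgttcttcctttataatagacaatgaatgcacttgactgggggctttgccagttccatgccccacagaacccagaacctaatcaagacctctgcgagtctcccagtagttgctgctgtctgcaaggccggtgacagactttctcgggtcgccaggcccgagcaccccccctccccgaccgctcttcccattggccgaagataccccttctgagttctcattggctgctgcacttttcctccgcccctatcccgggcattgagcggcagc
Phlda3, chr1:135765835-135766134, plus strand: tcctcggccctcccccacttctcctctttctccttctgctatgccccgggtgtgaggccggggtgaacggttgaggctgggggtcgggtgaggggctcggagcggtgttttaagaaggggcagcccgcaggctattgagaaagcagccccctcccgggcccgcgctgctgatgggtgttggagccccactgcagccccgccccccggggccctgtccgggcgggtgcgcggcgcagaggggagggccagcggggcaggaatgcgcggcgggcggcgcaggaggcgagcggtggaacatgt
Ephx1, chr1:181017520-181017819, minus strand: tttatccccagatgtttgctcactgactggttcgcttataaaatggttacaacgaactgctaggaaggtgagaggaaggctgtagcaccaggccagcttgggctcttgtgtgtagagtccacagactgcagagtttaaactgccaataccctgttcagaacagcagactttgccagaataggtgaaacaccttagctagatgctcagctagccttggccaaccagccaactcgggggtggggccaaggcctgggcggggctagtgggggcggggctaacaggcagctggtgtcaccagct

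The decamer GGGCTTGTCT begins at position -81 of the downstream Inka2 start, and AAGCTTGTTT begins at position -173 of the downstream Sesn1 start, where position 0 is the first transcribed base. Of the 11 windows, 2 held a decamer, against 8.36% of 32851 mouse promoter windows of the same length. The decamer is palindromic, so both strands give the same matches. The p53 element is a pair of decamers, and a 20-base search for a pair without a spacer was made, with the C and G of each decamer fixed. With up to 3 mismatches at the other positions it matched 2 of the 11 windows, against 1.38% of all windows, and with up to 2 mismatches it matched 0 of 11, against 0.326%. The 2 matches are shown with the CNNG core of each decamer in capitals; the Sesn1 match contains the decamer above, and the Tigar match lies in the window chr6:127109503-127109802 on the minus strand.
Sesn1, downstream start, from position -173: aagCTTGtttttgCTGGcct
Tigar, from position -213: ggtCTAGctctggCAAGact

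Base composition, which the choice of genes did not use, varied among the windows. Their median GC content was 65.3% and their median number of CpG dinucleotides was 23, against 52.7% and 7 over all windows. The windows of Btg2 and of the downstream Inka2 start were the richest, at 72.0% GC with 32 and 21 CpG. Those of Dglucy, with 53% GC and 3 CpG, and of Ephx1, with 54.3% GC and 5 CpG, stood near the medians of all windows. GGGCGG or its reverse complement CCGCCC stood in 10 of the 11 windows, all but that of Dglucy, against 35.7% of all windows, and CCAAT or its reverse complement ATTGG in 9 of 11 against 37.4%. TATAAA or TTTATA was found in 2 of 11, the upstream Inka2 window and that of Ephx1, against 13.6%, and CACGTG, which reads the same on both strands, in 0 of 11 against 7.15%. These shares were not matched on GC content, and a match is a run of letters, not a shown binding site.

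After irradiation 5 of the 10 genes were called higher, Phlda3, Inka2, Zmat3, Dglucy and Ephx1, and 0 were called lower, where 0.652% of all tested genes were called higher and 0.349% lower. Since the genes were listed with this contrast in view, nothing is read from that difference. For the same reason a call of any of the 10, here and below, describes the fit and is no independent test. The fold change (irradiated over untreated) was above 1 for all 10 genes, and their median log2 fold change was 1.13, against -0.01 over all tested genes. For 8 of them every irradiated library lay above every untreated one, where 10.6% of all tested genes did so; Tigar and Btg2 were the others. All 10 genes passed the filter on low counts, Inka2 and Psrc1 only through their irradiated libraries. In whole-gland RNA, more or fewer cells of a type cannot be told apart from more or less RNA per cell.

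**Figure D1:**
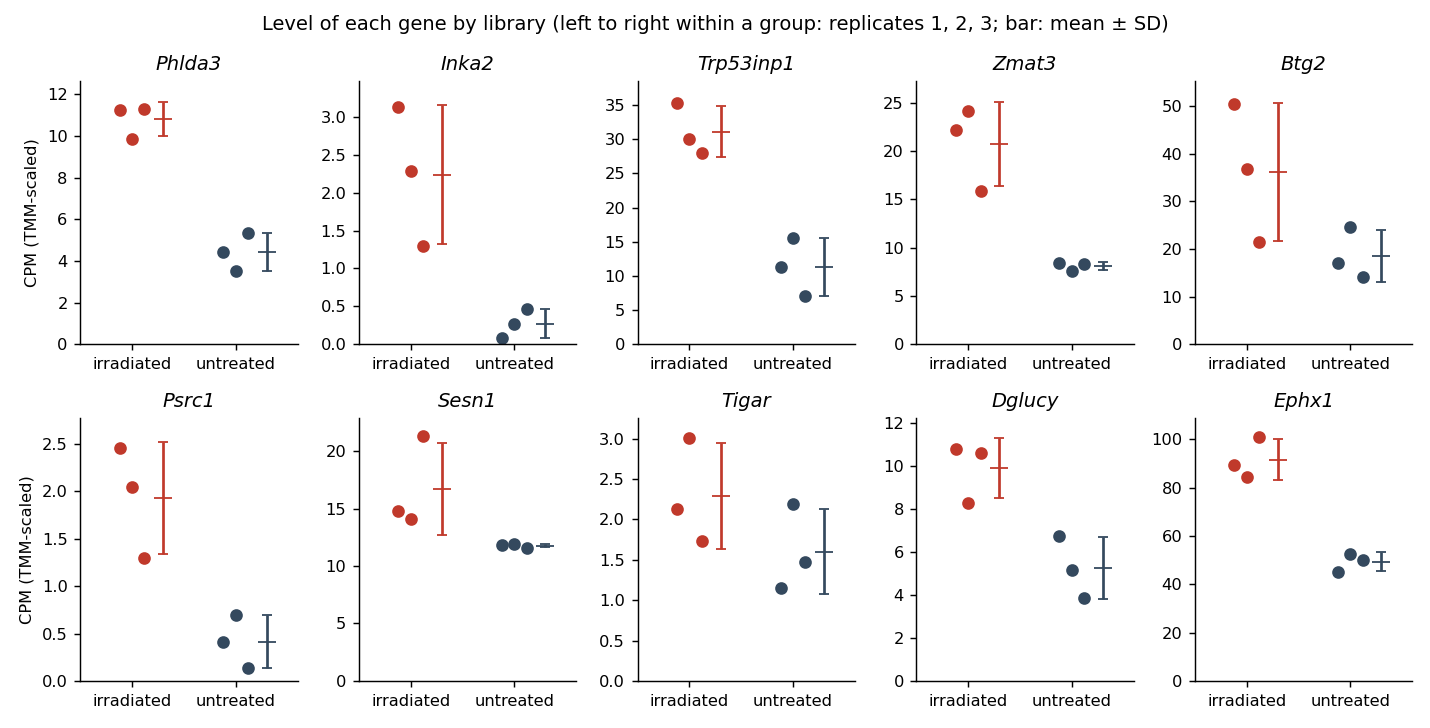
Level of each of the 10 genes in CPM (TMM-scaled) by library, with irradiated libraries in red on the left and untreated libraries in dark grey on the right of each panel; points are replicates 1, 2 and 3 and the bar is the mean ± SD. Inka2 sits between 1.30 and 3.13 CPM in irradiated glands and between 0.0823 and 0.467 CPM in untreated glands, while the groups overlap for Tigar and Btg2.

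The inhibitors of growth signalling come first. Phlda3 (ENSMUSG00000041801, chr1:135766119-135769136, plus strand, mm10) encodes a small protein made largely of a pleckstrin homology domain, which competes with the kinase AKT for membrane lipids and so holds it back. Its level was 11.3, 9.86 and 11.3 CPM in irradiated libraries 1, 2 and 3, against 4.44, 3.50 and 5.34 CPM in untreated libraries 1, 2 and 3. The irradiated libraries lay close together, and the lowest of them stood 1.85-fold above the highest untreated one. Phlda3 rose 2.43-fold, a log2 fold change of 1.28 with a standard error (SE) of 0.197. It was called in all 15 alternative settings, with log2 fold changes of 1.14 to 1.46.

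Inka2 (ENSMUSG00000048458, chr3:105704599-105720842, plus strand) encodes an inhibitor of the kinase PAK4, which acts on the actin cytoskeleton. It was counted 47, 19 and 15 times in the irradiated libraries and 1, 3 and 7 times in the untreated ones, which is 3.13, 2.29 and 1.30 CPM against 0.0823, 0.262 and 0.467 CPM. The groups did not overlap, and the untreated level rested on very few reads. Inka2 rose 7.78-fold, with a log2 fold change of 2.96 (SE 0.578), the largest among the 10 genes and the one with the largest SE. It was called in 8 of the 14 alternatives that tested it, and not with limma-voom or edgeR without robust shrinkage, among others. The call was also lost without irradiated replicate 1, untreated replicate 1 or untreated replicate 2, at log2 fold changes of 2.61, 2.56 and 2.92, and without untreated replicate 3 the value was 3.65.

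Trp53inp1 (ENSMUSG00000028211, chr4:11156431-11174379, plus strand) encodes a stress protein that binds p53 in the nucleus and ATG8-family proteins on autophagosomes. Its level was 35.3, 30.1 and 28.0 CPM in irradiated libraries 1, 2 and 3, against 11.3, 15.6 and 7.07 CPM in the untreated ones. The lowest irradiated library was 1.80-fold above the highest untreated one, and relative to its mean the spread was 12.1% among irradiated and 37.6% among untreated libraries (coefficient of variation, n = 3 each). The fold change was 2.78, a log2 fold change of 1.48 (SE 0.276), and the gene was not called. It was called in 8 of 15 alternatives, among them DESeq2, limma-voom and those without untreated replicate 2 (1.77) and without untreated replicate 3 (1.22).

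The RNA regulators among the 10 are Zmat3 and Btg2. Zmat3 (ENSMUSG00000027663, chr3:32334792-32366014, minus strand) encodes a zinc-finger protein that binds RNA and alters splicing. Its level was 22.2, 24.2 and 15.9 CPM in the irradiated libraries, against 8.39, 7.61 and 8.27 CPM in the untreated ones. The untreated libraries were nearly equal, with an SD of 0.423 CPM, and the spread lay among the irradiated ones, with replicate 3 lowest. Zmat3 rose 2.55-fold, a log2 fold change of 1.35 (SE 0.161), and was called in all 15 alternatives, at 1.23 to 1.51.

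Btg2 (ENSMUSG00000020423, chr1:134075170-134079120, minus strand) encodes an antiproliferative protein that recruits the CCR4-NOT complex, which shortens mRNA tails. Its level was 50.5, 36.7 and 21.4 CPM in the irradiated libraries, against 17.1, 24.6 and 14.01 CPM in the untreated ones. Irradiated replicate 3 fell below untreated replicate 2, so the groups overlapped. The fold change was 1.96, a log2 fold change of 0.97 with an SE of 0.418, and Btg2 was called in none of the 15 alternatives. Without irradiated replicate 3 its log2 fold change was 1.24 (SE 0.261), and without irradiated replicate 1 it was 0.64.

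Psrc1 (ENSMUSG00000068744, chr3:108383839-108388231, plus strand) encodes a proline- and serine-rich protein of the mitotic spindle that binds microtubule ends. It was counted 37, 17 and 15 times in the irradiated libraries and 5, 8 and 2 times in the untreated ones, which is 2.46, 2.04 and 1.30 CPM against 0.411, 0.700 and 0.133 CPM. The groups did not overlap, and the lowest irradiated library was 1.85-fold above the highest untreated one. The fold change of 4.79 was the second largest of the 10, with a log2 value of 2.26 (SE 0.557), and the gene was not called. Of 14 alternatives that tested it, 4 called it, and the value ranged from 1.79 without untreated replicate 3 to 2.84 without untreated replicate 2.

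Among the metabolic genes, Sesn1 (ENSMUSG00000038332, chr10:41809935-41908424, plus strand) encodes a sestrin, a protein that binds the GATOR2 complex and dampens the growth kinase mTORC1. Its level was 14.8, 14.1 and 21.3 CPM in the irradiated libraries, against 11.8, 11.9 and 11.6 CPM in the untreated ones. The untreated libraries were the most even of any of the 10 genes, with an SD of 0.153 CPM, and irradiated replicate 3 stood above the other irradiated libraries. The fold change was 1.42, a log2 fold change of 0.51 (SE 0.159), and Sesn1 was not called. It was called in 2 of 15 alternatives, library totals alone and no filter on low counts. Without irradiated replicate 3 the log2 fold change was 0.29, and with any other single library left out it was 0.50 to 0.61.

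Tigar (ENSMUSG00000038028, chr6:127085116-127109557, minus strand) encodes a phosphatase that removes fructose 2,6-bisphosphate, an activator of glycolysis, and so leaves more sugar for the pentose phosphate pathway. Its level was 2.13, 3.01 and 1.73 CPM in the irradiated libraries, against 1.15, 2.19 and 1.47 CPM in the untreated ones. Replicate 2 was the highest library of each group, and the groups overlapped. The fold change was 1.41, a log2 fold change of 0.50 (SE 0.398), and none of the 14 alternatives that tested it called it. An antisense gene that overlaps Tigar, Platr31, had 0 counts in all 6 libraries.

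Dglucy (ENSMUSG00000021185, chr12:100779057-100896981, plus strand) encodes D-glutamate cyclase, a mitochondrial enzyme that clears D-glutamate. Its level was 10.8, 8.30 and 10.6 CPM in the irradiated libraries, against 6.75, 5.16 and 3.87 CPM in the untreated ones. The groups did not overlap, with a ratio of 1.23 between the lowest irradiated and the highest untreated library. Dglucy rose 1.91-fold, a log2 fold change of 0.93 (SE 0.212). It was called in 8 of 15 alternatives, and not with limma-voom or edgeR without robust shrinkage, among others. The call was also lost without irradiated replicate 1 or 3 and without untreated replicate 2 or 3, at log2 fold changes of 0.86, 0.88, 0.92 and 0.74.

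Ephx1 (ENSMUSG00000038776, chr1:180976210-181020904, minus strand) encodes microsomal epoxide hydrolase, which opens reactive epoxides made by cytochrome P450 enzymes. Its level was 89.3, 84.6 and 100.9 CPM in the irradiated libraries, against 45.1, 52.6 and 50.2 CPM in the untreated ones. Both groups were tight, and the lowest irradiated library was 1.61-fold above the highest untreated one. Ephx1 rose 1.86-fold, a log2 fold change of 0.89 with the smallest SE of the 10, 0.110, and was called in all 15 alternatives at 0.81 to 1.04.

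**Figure D2:**
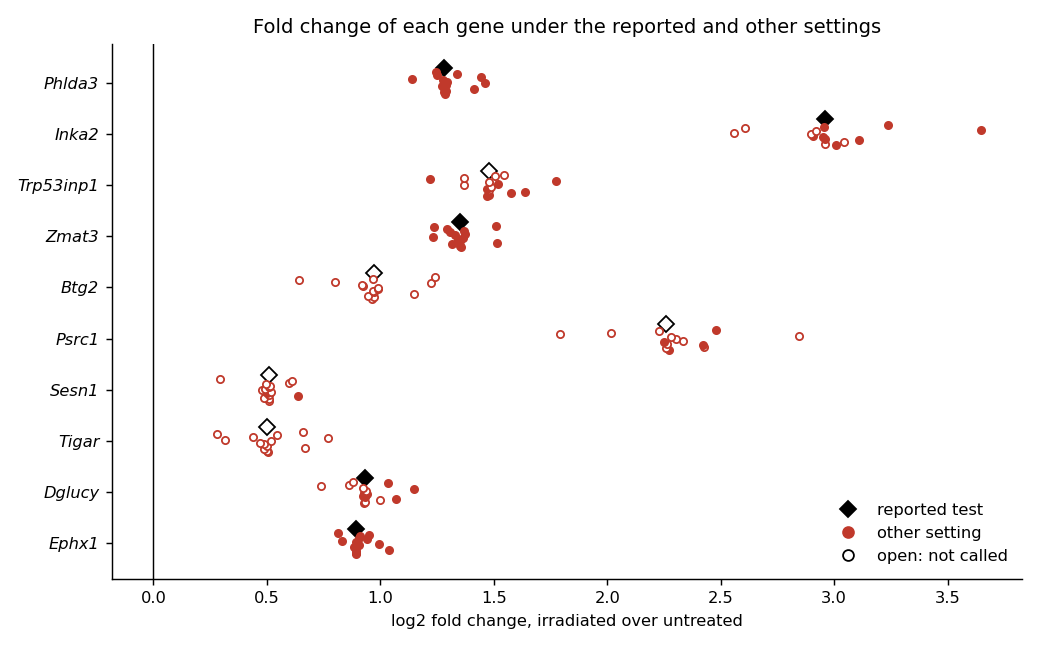
Log2 fold change (irradiated over untreated) of each of the 10 genes in the reported test (black diamonds) and in the alternative settings (red circles), filled where the gene was called and open where it was not. All values lie above 0; Phlda3, Zmat3 and Ephx1 are filled throughout and Tigar and Btg2 are open throughout.

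The order of fold changes was not the order of levels. Per exon length, in TPM (each gene's share of length-scaled counts), Ephx1 had the highest level in irradiated glands, 84.9 TPM, followed by Btg2 at 24.3, Phlda3 at 12.5, Trp53inp1 at 8.75, Sesn1 at 7.52, Dglucy at 3.88, Zmat3 at 3.35, Tigar at 1.16, Psrc1 at 1.06 and Inka2 at 0.862 TPM. In untreated glands Ephx1 was also highest at 39.0 TPM and Btg2 next at 10.3 TPM, and Sesn1 (4.55 ± 0.290 TPM, SD, n = 3) and Phlda3 (4.41 ± 1.24 TPM) differed by less than their spread. Psrc1 at 0.184 TPM and Inka2 at 0.0898 TPM closed the order in untreated glands. TPM carries no TMM factors, so here and below it orders genes within a group and is not compared between groups. Inka2 and Psrc1, with the largest fold changes, were the lowest in level, and since they passed the low-count filter only through their irradiated libraries, genes with untreated levels this low could be tested only where they were higher after irradiation: 2.51% and 3.83% of all tested genes had a lower mean count level, against 94.4% for Ephx1. In log2 fold change 91.2% of all tested genes lay below Tigar, 91.6% below Sesn1 and 96.8% to 99.9% below each of the other 8 genes.

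**Figure D3:**
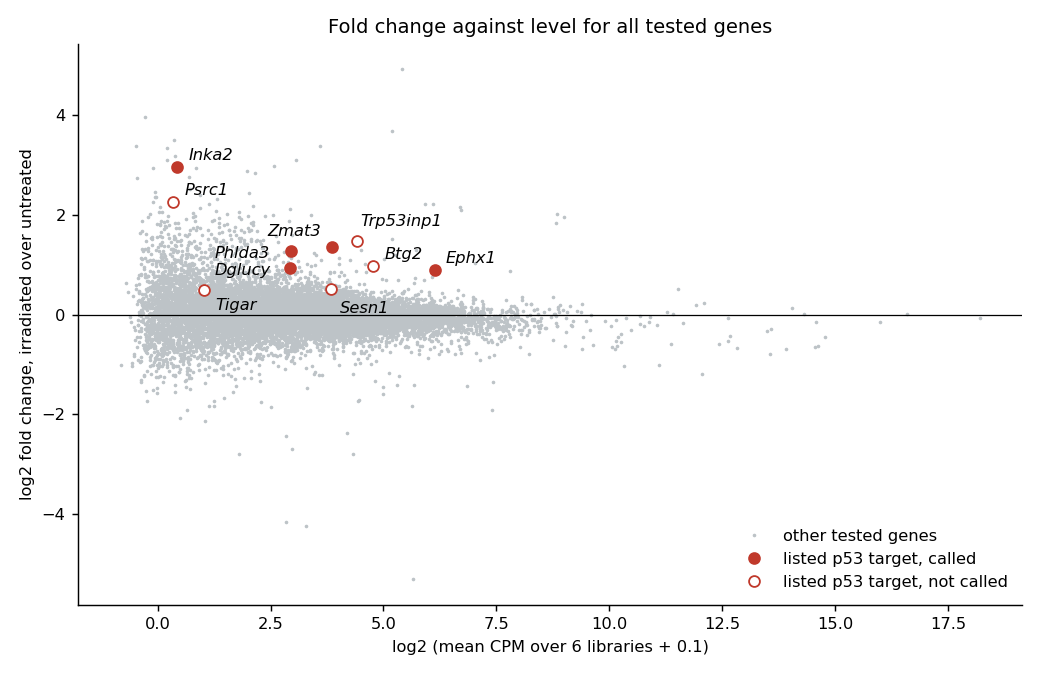
Log2 fold change (irradiated over untreated) against log2 of the mean CPM over 6 libraries for all tested genes (grey), with the 10 p53 targets in red, filled where called and open where not. Inka2 and Psrc1 lie at the low end of the levels with log2 fold changes of 2.96 and 2.26, and Ephx1 near the high end with 0.89.

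The irradiated libraries did not carry the 10 genes in equal measure. Averaged over the 10 genes, the log2 shift from the mean of the untreated libraries was 1.39, 1.25 and 1.03 in irradiated libraries 1, 2 and 3, and -0.06, 0.19 and -0.13 in untreated libraries 1, 2 and 3. Irradiated replicate 1 was the highest of its group for 5 genes and the lowest for 0, and irradiated replicate 3 was the lowest for 6, though it was the highest for Phlda3, Sesn1 and Ephx1. Untreated replicate 2 was the highest of its group for 6 genes. Without irradiated replicate 1 the count of called genes was 3, namely Phlda3, Zmat3 and Ephx1, and without the shallow irradiated replicate 2 the same 5 genes were called. Correlations of each gene with the mean profile of the other 9 over the 6 libraries, which the difference between the groups dominates, were 0.958 for Trp53inp1, 0.946 for Ephx1 and 0.943 for Zmat3 at the top, and 0.656 for Sesn1 and 0.617 for Tigar at the bottom.

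The listed relatives of the 10 genes, 22 in all, include the other sestrins, the other BTG and TOB proteins and the bifunctional enzymes that make and remove the substrate of TIGAR. Where edgeR's quasi-likelihood test called 1.00% of all tested genes, it called 0 of the 14 relatives that passed the low-count filter. DESeq2 and limma-voom also called 0 of the 14. Unadjusted p-values were under 0.05 for 4 of the 14 in edgeR (Sesn2, Sesn3, Zmat2 and Ephx2), for 2 in DESeq2 and for 3 in limma-voom. Over all 12885 tested genes the same held for 1929 in edgeR, 1413 in DESeq2 and 2026 in limma-voom. These all-gene counts are the background to each such count below, and nothing is read from such counts. The 14 log2 fold changes had a median of 0.01, with 7 above and 7 below 0. With library totals in place of TMM factors, which moved the median of all genes to 0.14, 11 of the 14 were above 0. Among the untested relatives Inka1, the close relative of Inka2, had 19, 5 and 4 counts in irradiated libraries and 5, 6 and 21 in untreated ones, and Btg4 had 0 counts in all 6.

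Sesn2, a second sestrin that stress also induces, had 6.79, 9.86 and 7.51 CPM in the irradiated libraries, against 6.01, 3.85 and 2.47 CPM in the untreated ones. Every irradiated library was above every untreated one, by a narrow margin for replicate 1 of each group. Its log2 fold change was 0.97 (SE 0.278), against 0.51 for Sesn1, with an edgeR adjusted p of 0.104; without untreated replicate 1 it was called, at 1.35 and an adjusted p of 0.0197. Sesn3, the sestrin known as a target of FoxO factors, had 40.9, 41.0 and 37.1 CPM against 35.7, 36.2 and 28.2 CPM, a log2 fold change of 0.25 (SE 0.118, edgeR adjusted p = 0.325). The differences between the sestrins were not tested. In TPM the 3 sestrins stood at 7.52 for Sesn1, 4.74 for Sesn3 and 4.27 for Sesn2 in irradiated glands, and at 4.55, 3.34 and 1.79 TPM in untreated glands.

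Phlda1, a relative of Phlda3 with the same kind of domain, had 133.6, 88.3 and 90.8 CPM in the irradiated libraries, against 108.3, 99.4 and 172.2 CPM in the untreated ones, and the groups overlapped. Its log2 fold change was -0.28 (SE 0.283, edgeR adjusted p = 0.717), and it was far more abundant than Phlda3, at 85.7 TPM in irradiated and 89.9 TPM in untreated glands. Trp53inp2, which also acts in autophagy, had a log2 fold change of -0.14 (SE 0.130, edgeR adjusted p = 0.657). It stood at 35.6 TPM in irradiated and 33.0 TPM in untreated glands, values without TMM factors that are not compared between the groups. Thus in both pairs the relative outside the list was the more abundant gene and was not called. Zmat2, a splicing factor, had -0.41 (SE 0.142, edgeR adjusted p = 0.163), and Ephx2, the soluble epoxide hydrolase, had -0.38 (SE 0.170, edgeR adjusted p = 0.292). Btg1 had a log2 fold change of 0.22 (SE 0.106, edgeR adjusted p = 0.340) with no overlap between the groups, and Btg3, Tob1 and Tob2 had 0.11, 0.34 and -0.06. Zmat5 had -0.07, and the enzymes Pfkfb1, Pfkfb2 and Pfkfb3, which set fructose 2,6-bisphosphate, had 0.08, 0.08 and -0.08.

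**Figure D4:**
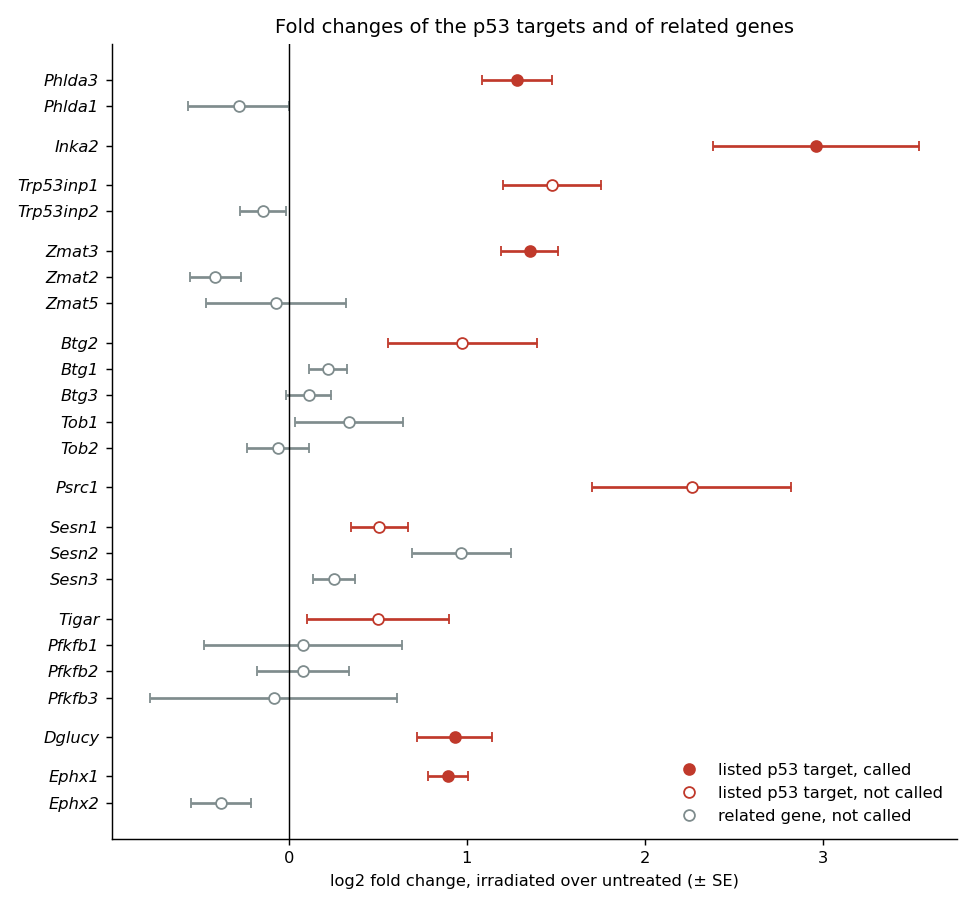
Log2 fold change (irradiated over untreated) ± SE for the 10 p53 targets (red) and their tested relatives (grey), filled where called and open where not. All 10 red points lie above 0, at 0.50 to 2.96, and the grey points lie between -0.41 and 0.97, with Sesn2 the highest.

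Of 42 further listed p53 targets 33 were tested, and 5 rose and 28 were not called, where 0.652% of all tested genes were called higher. This list too was chosen with earlier results of these data known. Its calls and p-values are therefore description, and nothing is read from its difference to all genes. DESeq2 called 6 of the 33 higher and limma-voom 4. Among the 5 were Cdkn1a, the inhibitor of cyclin-dependent kinases, and Polk, a polymerase that copies across DNA lesions. With them rose Gdf15, a secreted stress factor, Eda2r, an ectodysplasin receptor, and Ccng1, a cyclin that feeds back on p53. Their log2 fold changes were 3.38 (SE 0.191) for Cdkn1a, 3.11 (SE 0.241) for Gdf15, 2.97 (SE 0.284) for Eda2r, 1.04 (SE 0.117) for Ccng1 and 1.32 (SE 0.306) for Polk, with edgeR adjusted p-values of 2.03e-09, 3.65e-07, 4.72e-06, 4.74e-05 and 0.0405. The call of Polk was lost when any 1 library was left out, at adjusted p-values of 0.0593 to 0.143. Of the 33, 0 were called lower by edgeR, DESeq2 or limma-voom, and the median log2 fold change was 0.41. Cdkn1a and Gdf15 had larger log2 fold changes than any of the 10 genes, and Inka2, at 2.96, stood next to Eda2r.

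Mdm2, the p53 inhibitor that p53 itself induces, had 23.1, 23.2 and 21.2 CPM in the irradiated libraries, against 16.4, 15.1 and 18.3 CPM in the untreated ones. The groups did not overlap, and its log2 fold change of 0.44 (SE 0.124) had an edgeR adjusted p of 0.0922. Trp53, the p53 gene, had 12.1, 9.14 and 6.99 CPM in irradiated libraries and 8.15, 7.26 and 10.6 CPM in untreated ones, with overlapping groups and a log2 fold change of 0.12 (SE 0.206, edgeR adjusted p = 0.840). Over Trp53 and 7 genes that regulate p53, 0 of 8 were called by edgeR, DESeq2 or limma-voom, where edgeR called 1.00% of tested genes. All 8 log2 fold changes were positive, with a median of 0.25, where 6329 of all 12885 tested genes had positive values. Unadjusted p-values were under 0.05 for 2 in edgeR, the kinases Atm and Hipk2, for 1 in DESeq2 and for 2 in limma-voom. The level of the p53 mRNA does not measure the p53 protein, which is controlled mainly by its breakdown.

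A separate list of 14 p53 targets in metabolism, which holds none of the 10 genes, gave 11 tested genes. Where edgeR called 1.00% of all tested genes, 0 of these 11 were called by edgeR, DESeq2 or limma-voom. Their median log2 fold change was -0.07, which library totals in place of TMM factors turned to 0.07. Unadjusted p-values were under 0.05 for 2 genes in edgeR, 1 in DESeq2 and 3 in limma-voom; the 2 were Mlycd, which degrades malonyl-CoA, and Pltp, a lipid transfer protein, at log2 fold changes of -0.53 (SE 0.175) and -0.32 (SE 0.150), named here after their values were seen. Gls2, a glutaminase, had 0 counts in the irradiated libraries and at most 2 in an untreated one, and Sco2, a cytochrome oxidase assembly factor, had 0 in all.

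Partner genes of the 10, those whose proteins bind them or share their pathway, were also counted. Of 94 listed, 86 were tested, 0 rose and 2 fell, where 0.652% of all tested genes were called higher and 0.349% lower. The median log2 fold change of the 86 was 0.02. Gabarapl1, an ATG8-family protein of the kind that TRP53INP1 binds, had 26.3, 26.2 and 26.2 CPM in the irradiated libraries, against 34.6, 38.9 and 36.2 CPM in the untreated ones. Its log2 fold change was -0.48 (SE 0.108, edgeR adjusted p = 0.0329). Tnks1bp1, which in human cells associates with the CCR4-NOT complex, had 39.2, 38.6 and 52.3 CPM in irradiated libraries and 69.5, 58.8 and 61.3 CPM in untreated ones, with a log2 fold change of -0.54 (SE 0.126, edgeR adjusted p = 0.0405). Neither group pair overlapped. Of the 6 fits that leave out 1 library, the call of Gabarapl1 held in 1, that without untreated replicate 1, and the call of Tnks1bp1 in 1, that without irradiated replicate 3. DESeq2 called Tnks1bp1 of the pair and limma-voom called neither.

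By pathway, the 12 autophagy partners of TRP53INP1 had 1 called gene, Gabarapl1, and a median log2 fold change of -0.13. Of the 12, 11 were below 0, where 6556 of all 12885 tested genes were. With library totals in place of TMM factors the median of the 12 was 0.01 and 5 of them were below 0. The 13 tested CCR4-NOT genes around BTG2 had a median of 0.00 and 1 called gene, Tnks1bp1. Each of these lists held 1 called gene, which fell, and nothing about either list is read from that gene.

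The remaining partner lists held 0 called genes in edgeR and limma-voom. The sestrin and mTORC1 list had 25 tested genes, a median log2 fold change of 0.08 and 0 genes with an unadjusted p under 0.05 in edgeR, DESeq2 or limma-voom. Its most abundant members, Deptor, which binds mTOR, and Sec13, a GATOR2 subunit, had 0.03 (SE 0.114) and 0.08 (SE 0.132). The pentose phosphate list had 8 tested genes and a median of -0.04, or 0.11 with library totals, with Taldo1, transaldolase, at -0.14 (SE 0.120) and Tkt, transketolase, at -0.05 (SE 0.118). Each of the 3 tools gave 2 of its genes an unadjusted p under 0.05; in edgeR these were H6pd and Rpe, named after their values were seen.

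In the AKT list of 8 tested genes the median was 0.18, with Pik3r1, a regulatory subunit of phosphoinositide 3-kinase, at 0.27 (SE 0.114, edgeR adjusted p = 0.273). Again each tool gave 2 genes an unadjusted p under 0.05. Of the 4 tested PAK kinases 0 had an unadjusted p under 0.05 in any tool, and Pak4, the kinase INKA2 inhibits, had 13.4, 12.1 and 16.1 CPM in the irradiated libraries, against 16.2, 12.1 and 13.01 CPM in the untreated ones. Its log2 fold change was 0.02 (SE 0.155, edgeR adjusted p = 0.978), while Pak2 had 0.16 (SE 0.106).

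The 8 tested spindle partners of PSRC1 had a median of 0.32, with Mapre1, a microtubule end-binding protein, at 0.24 (SE 0.118) and Ckap5, a microtubule polymerase, at 0.41 (SE 0.143, edgeR adjusted p = 0.168). In edgeR 3 genes, Aurka, Ccp110 and Ckap5, had an unadjusted p under 0.05, against 2 in DESeq2 and 3 in limma-voom. The 8 tested enzymes of xenobiotic metabolism beside Ephx1 had a median of -0.25 with 7 of 8 below 0, or -0.10 with 5 of 8 below 0 with library totals. Cyp2f2, a cytochrome P450 that makes epoxides, had 144.2, 151.1 and 179.2 CPM in the irradiated libraries, against 243.2, 221.8 and 189.0 CPM in the untreated ones. Its log2 fold change was -0.46 (SE 0.130, edgeR adjusted p = 0.0842), and DESeq2 called 1 gene of this list lower. Gstm1, a glutathione transferase, had -0.19 (SE 0.117). Unadjusted p-values were under 0.05 for 3 genes in edgeR, Cyp1b1, Cyp2f2 and Por, for 2 in DESeq2 and for 4 in limma-voom.

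Summed lymphocyte markers differed between the groups without overlap. The 14 T cell markers summed to 48.2, 67.0 and 55.9 CPM in the irradiated libraries, against 24.6, 2.10 and 21.9 CPM in the untreated ones, and the 11 B cell markers to 49.8, 49.1 and 49.6 CPM against 23.9, 0.699 and 13.7 CPM. All 14 T cell and all 10 tested B cell markers had positive log2 fold changes, with medians of 1.69 and 1.97, and 2 of each rose in edgeR: Cd5 and Cd8b1, and Bank1 and Fcrl1. DESeq2 also called 2 of each higher and limma-voom 0 of each, and over all tested genes edgeR called 0.652% higher. Untreated replicate 2 was nearly free of these markers, with 3 T cell and 4 B cell markers at 0. Without that library the median log2 fold change of the 10 was 1.18 and 4 were called, Phlda3, Trp53inp1, Zmat3 and Ephx1. The part of lymphocytes in the levels of the 10 genes was not tested.

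**Figure D5:**
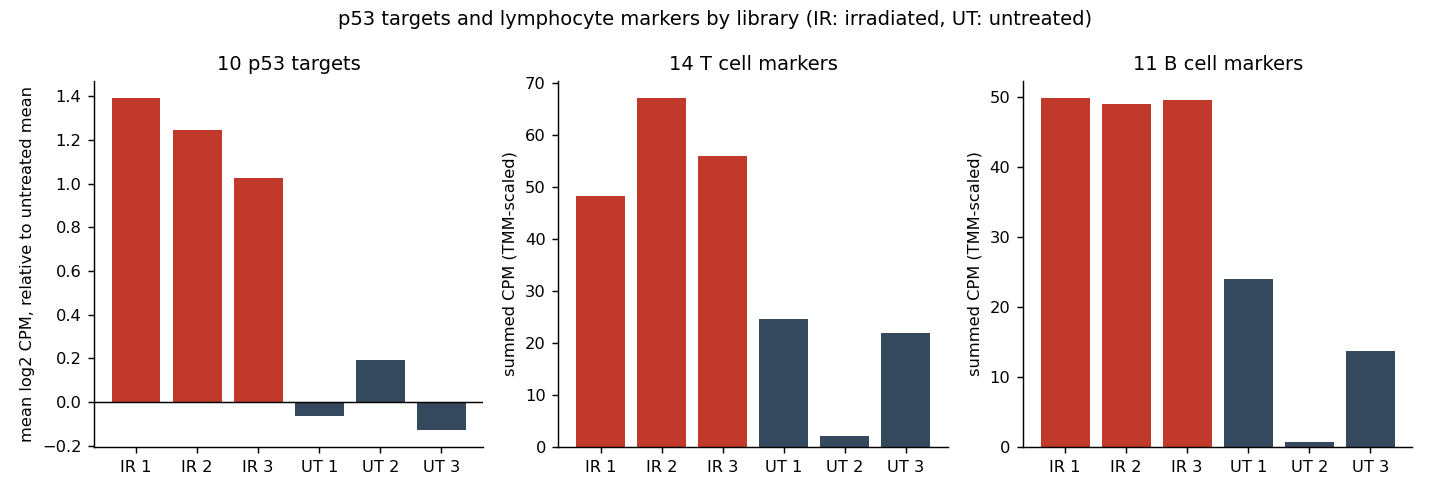
Left, mean log2 CPM of the 10 p53 targets relative to the mean of the untreated libraries; middle and right, summed CPM (TMM-scaled) of 14 T cell and 11 B cell markers, in irradiated libraries (red) and untreated libraries (dark grey). The target mean is 1.39, 1.25 and 1.03 in irradiated libraries, and T cell markers sum to 48.2 to 67.0 CPM in irradiated and 2.10 to 24.6 CPM in untreated libraries.

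Other cell types differed less or in the opposite direction. The 8 duct markers summed to 1648 to 1898 CPM in irradiated and 1926 to 2266 CPM in untreated libraries. The 6 skeletal muscle markers summed to 157 to 478 against 486 to 607 CPM. The 8 macrophage markers summed to 93.1 to 103 against 101 to 120 CPM, with overlap between the groups. Sums for acinar, myoepithelial and basal, plasma cell, endothelial, fibroblast, fat cell, and submandibular and lacrimal gland markers also overlapped between the groups. Of all these lists edgeR called 1 gene, the acinar marker Car6, a secreted carbonic anhydrase, which fell by 0.79 on the log2 scale (SE 0.178, edgeR adjusted p = 0.0329). Over all tested genes edgeR called 0.349% lower. DESeq2 called 1 acinar and 1 duct marker lower, and limma-voom called 0 genes of these lists. The part of these cell types in the levels of the 10 genes was not tested.

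The genes whose log2 CPM followed the mean profile of the 10 most closely over the 6 libraries, by Pearson correlation and leaving out predicted genes, were Gdf15 at 0.996, Ggta1 at 0.995, Ppp2r5e at 0.991, Mrps10 at 0.990 and Srebf2 at 0.989. Ggta1, an enzyme that adds galactose to cell-surface sugars, had 18.4, 16.7 and 14.8 CPM in the irradiated libraries, against 7.24, 8.57 and 7.61 CPM in the untreated ones. Its log2 fold change was 1.10 (SE 0.153) and it was called. Since these genes were picked for following a profile that splits the groups, such a call is no independent test. The other 3 were not called, with log2 fold changes of 0.41 for Ppp2r5e, a phosphatase subunit, 0.31 for Mrps10, a mitochondrial ribosomal protein, and 0.32 for Srebf2, a regulator of sterol synthesis. These correlations reflect mainly the split between the groups.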

How the data were processed

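The authors deposited raw gene counts, whole numbers by Ensembl gene, in 1 table per sample. The submitters' processing notes list bcl2fastq, HISAT2, HTSeq and the build mm10, and libraries were made with a stranded total RNA kit per the labels' protocols. Versions, annotation and the strand setting are not given in the sources used here. Of 52636 genes, 52489 matched a symbol in GENCODE (GRCm38). Gene names, coordinates and exon lengths came from there. Entries naming no gene held 32.4% to 40.7% of reads per library and were left out. Between 13.3% and 18.4% of reads aligned to several places and were not counted in genes.

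Counts were tested with edgeR 4.0.16 in R 4.3.3 (TMM, filterByExpr with a minimum count of 10, robust quasi-likelihood fit, Benjamini-Hochberg adjustment, threshold 0.05), groups taken from the treatment label. SEs were derived from F statistics. CPM is scaled by TMM factors, and TPM uses exon lengths without them. Correlations used log2 CPM with a prior count of 2. The procedure was checked on simulated counts. There it called 22% of 1.5-fold changes, 69.3% of 2-fold changes and 0.0499% of unchanged genes. The simulation gave each gene the variation typical of its level, and these shares pool genes of all levels. They may differ for genes that vary more than that or have few counts. A gene that was not called is therefore not shown to be unchanged. Alternatives were DESeq2 1.42.0, limma-voom (limma 3.58.1), other scalings and filters, a length and GC offset, a replicate block and each library left out.

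The 10 genes, the lists and the alternatives were chosen with earlier results of these data known. Named genes are the 10, their tested relatives, called genes of the lists or, where none was called, the 2 most abundant, and the 5 genes with the most similar profile. Some named genes are not reported here.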

Additional observations from a re-analysis of the deposited data

How the results depend on the processing

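All 10 p53 targets had positive log2 fold changes in every setting that tested them, and their median of 1.13 lay between 0.99 and 1.28; with a minimum count of 30, Tigar, Psrc1 and Inka2 were not tested. Of the 10, 5 were called, against 7 with DESeq2, 4 with limma-voom and 4 with edgeR without robust shrinkage. Library totals alone gave 8, no filter on low counts gave 8, and fits with 1 library left out gave 3 to 5. Over all genes 84 rose, against 121 with DESeq2, 21 with edgeR without robust shrinkage and 20 with limma-voom. Library totals gave 260, no filter gave 279, and fits with 1 library left out gave 31 to 83. Genes that fell were 45, against 70 with DESeq2, 5 without robust shrinkage, 5 with limma-voom, 22 with library totals, 239 with no filter, 28 with the length and GC offset and 14 to 72 with 1 library left out. Called relatives were 0, against 2 with library totals (Sesn2 and Btg1), 1 with no filter (Sesn2) and 0 to 1 with 1 library left out (Sesn2, without untreated replicate 1). Called metabolic p53 targets were 0, against 1 with no filter. Called partner genes were 2, against 0 without robust shrinkage, with limma-voom and with the length and GC offset, and 0 to 2 with 1 library left out. The cause of these moves was not tested.

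The shared replicate numbers were not treated as pairs: deviations of same-numbered libraries from their group means correlated at 0.0199, -0.111 and -0.107, and irradiated libraries did not correlate best with their own number in each case. With the replicate block 39 genes rose, 14 fell, 4 of the 10 p53 targets and 0 partner genes were called, and the median of the 10 was 1.11. Under the block the calls of Inka2 and Dglucy were lost and Trp53inp1 was called.

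Counts were low for Inka2 and Psrc1, with at most 8 in any untreated library. The SE was 0.398 for Tigar, at 2.29 CPM in irradiated glands, and 0.418 for Btg2, at 36.2 CPM; the part of depth in these errors was not tested. With 3 samples a group, no rule for outlying samples was applied.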
